A study of Mus musculus with 12 samples.

Results

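The comparison set the control hepatocytes of the series against its control livers. Its members were the 3 libraries of wild-type mouse primary hepatocytes given a scrambled small interfering RNA (siScramble hepatocytes) and the 3 libraries of whole liver labelled as GFP controls (GFP livers), 6 of the 12 libraries of the series. All 6 came from the same poly(A)-selected RNA sequencing study of the lipase ABHD6, and neither group had its Abhd6 level altered by design. The siScramble hepatocytes were parenchymal cells taken out of the liver and given the scrambled RNA in culture, and their labels name no diet. The GFP livers were wild-type livers from mice of the C57BL/6 background that ate a high-fat diet, with 60% of calories from fat, for 8 weeks. What delivered the GFP is not given for these mice in the sources used here, nor are the culture medium, the time in culture, or whether the hepatocyte libraries came from separate mice or from dishes of 1 isolation. The p-values below therefore measure the spread between these libraries, which may be technical in the hepatocytes. Culture, diet, vector and the loss of the other liver cells go together between the groups, and their shares in a difference cannot be told apart.

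The hepatocyte is the main cell of the liver. It secretes most plasma proteins, makes bile acids and urea, keeps blood glucose up between meals, and clears drugs. It is held in that state by a network of liver-enriched transcription factors, by its position along the blood flow of the lobule, by hormones and by its neighbours. Isolated hepatocytes that attach to a dish are known to flatten, build stress fibres and lose part of their specialised gene expression, a change usually called dedifferentiation.

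The hepatocyte libraries held between 12395020 and 13687998 counts and the liver libraries between 15052684 and 16234658. Of 56748 genes in the count table, 14215 passed the filter on low counts and were tested. Counts of Ddx3y, Eif2s3y, Kdm5d and Uty, genes of the Y chromosome, were present in all 6 libraries, and Xist was under 1 CPM in each. Correlations of log2 CPM lay between 0.992 and 0.993 among the hepatocyte libraries, against 0.981 between GFP livers 1 and 2 and 0.954 and 0.946 between those and GFP liver 3. The biological coefficient of variation was 4.89% in the hepatocytes and 30.3% in the livers. The test used below fitted 1 spread per gene to both groups together (common value 21.4%), so its p-values reflect neither group's own spread. GFP liver 3 stood apart from the other 2 livers in lipid, acute phase and sex-biased genes. Results are therefore also given without GFP liver 3 where that changes them. Male-biased liver genes took 0.367, 0.225 and 2.97% of the counts of GFP livers 1, 2 and 3, and female-biased ones 0.0455, 0.047 and 0.00315%.

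Most of the transcriptome differed. With edgeR's quasi-likelihood test and Benjamini-Hochberg adjustment, 9991 genes (70.3% of those tested) were called at an adjusted p under 0.05, and 4740 of these (33.3% of tested genes) were higher in siScramble hepatocytes and 5251 (36.9%) lower. A difference of at least 4-fold was called for 3312 genes (23.3%), of which 1076 (7.57%) were higher and 2236 (15.7%) lower, and these percentages are the background for every count of list members below. At 16-fold or more, 300 genes were higher and 1052 lower. Hepatocyte and liver libraries were fully separate in 76.4% of the genes tested, which is the background for each lack of overlap given below. Many named genes were picked by the size of their change, and some also by a lack of overlap. Their separation is therefore a description only. The first dimension of a scaling plot, which parted hepatocytes from livers, carried 86.2% of the variance and the second, which parted GFP liver 3 from the rest, 9.22%. In such bulk RNA, fewer cells of a type and less RNA per cell cannot be told apart.

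The balance of directions depended on the scaling between libraries. Trimmed-mean (TMM) scaling placed the median of all tested genes at a log2 fold change of -0.033, with 47.4% of the calls higher in hepatocytes and 52.6% lower. Scaling by library totals alone moved the typical gene up by 0.83 on the log2 scale, to a median of 0.80, and gave 74.2% of calls higher and 25.8% lower. The shift was nearly the same for every gene, so it could not turn a difference of at least 4-fold. All 1076 genes at least 4-fold higher kept that call, as an upward shift implies, and 1611 of the 2236 lower did. Unless a share of the library total is named, levels below are CPM, counts scaled to a common library size by TMM, and differences are log2 fold changes of hepatocytes over livers. Without GFP liver 3, 992 of the 1076 genes and 2143 of the 2236 genes kept a call of at least 4-fold in the same direction. Only Moxd1, named after its values were seen, changed to the opposite 4-fold call, with 0.671, 0.604 and 0.243 CPM in hepatocytes, against 0, 0 and 649 CPM in livers. A second pair of groups that shared no library with this one, hepatocytes with ABHD6 knocked down against livers overexpressing ABHD6, gave the same 4-fold call for 893 of the 1076 higher and 1944 of the 2236 lower genes, and of the 3169 tested there none turned.

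The counts were spread over more genes in the cultures. The 50 most abundant genes took 19.2, 19 and 19.1% of the siScramble hepatocyte libraries, against 33.2, 33.5 and 37.4% of the GFP liver libraries. In hepatocytes 791, 789 and 785 genes were needed to reach 50% of the counts, against 220, 219 and 136 in livers. Neither measure overlapped between the groups, and the exact two-sided permutation test gave p = 0.1 for both, the smallest that 3 against 3 libraries allow. Albumin, the main plasma protein, was the top gene of the livers at 7.04% of their counts, against 1.19% in hepatocytes. Mitochondrially encoded Co1 was the top gene of the hepatocytes at 1.58%, against 1.88% in livers.

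**Figure D1:**
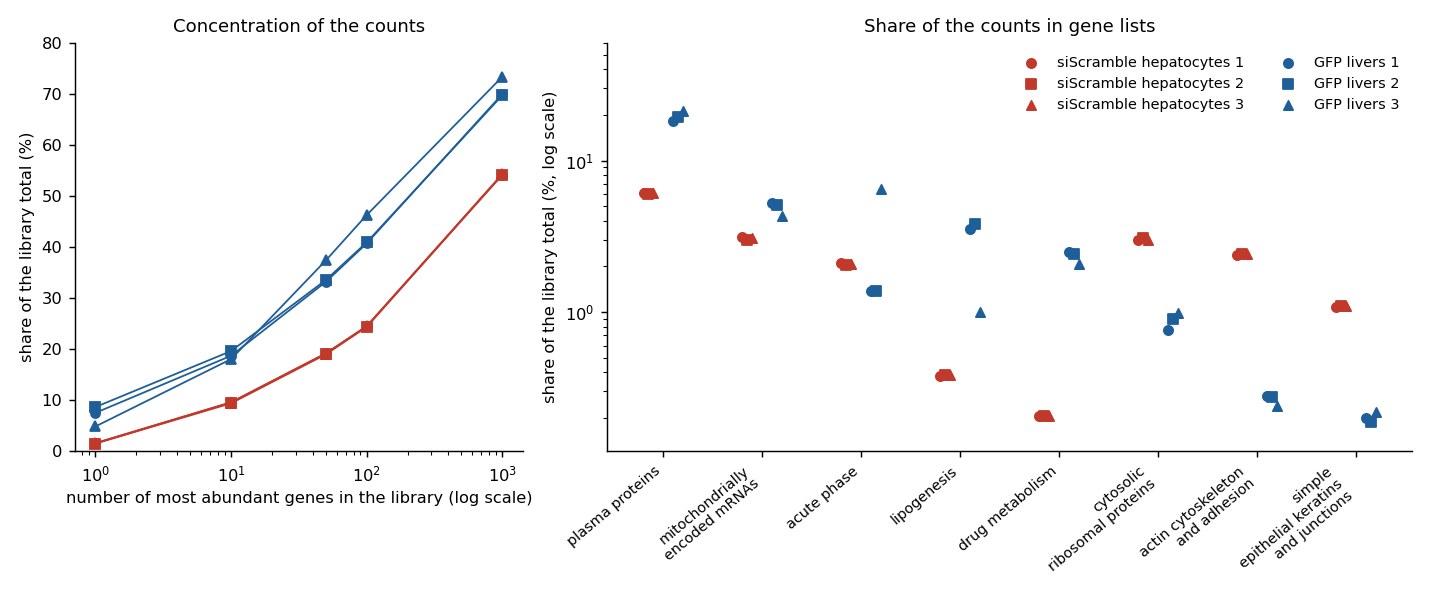
Left, the cumulative share of the library total (%) held by the 1 to 1000 most abundant genes (log scale) of each library. Right, the share of the library total (%, log scale) in 8 gene lists, with 1 point per library. The 3 hepatocyte libraries lie on top of each other, at 24.5, 24.4 and 24.5% for 100 genes, below the livers at 40.7, 40.9 and 46.3%, and the acute phase and lipogenesis shares of GFP liver 3 lie away from those of the other livers.

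Ranked by percentage points of the library total, the largest losses in hepatocytes after albumin were for Scd1 (a fatty acid desaturase), Apoe and Apoa1 (apolipoproteins), Cyp2e1 (an ethanol-oxidising cytochrome P450), mt-Cytb, Pzp and Serpina3k (protease inhibitors), Trf (transferrin) and Fga (a fibrinogen chain). Trf, for example, still took 1.16% of hepatocyte counts, against 1.78% of liver counts. Serpina3k had 412, 407 and 424 CPM in hepatocytes, against 4876, 3036 and 18601 CPM in livers, with a log2 fold change of -4.41 that was -3.24 without GFP liver 3. It overlaps Serpina3m on the same strand, and reads may be split between them. GFP liver 3 was also the highest liver for Fga, Trf, Pzp and Apoa1 and the lowest for Scd1. The largest gains were for Clu (clusterin, a secreted chaperone), Eef1a1 (translation elongation), Krt8 and Krt18 (the keratin pair of simple epithelia), Gc (vitamin D-binding protein), Cp (ceruloplasmin), Hpx (hemopexin), Myh9 (non-muscle myosin), Actb and Glud1. A gain in share was not always a call. Gc had 6810.4, 6844 and 6772 CPM in hepatocytes, against 7448, 7331 and 8022 CPM in livers, a log2 fold change of -0.16 (SE 0.13, edgeR adjusted p = 0.315) that turned positive, and called, at 0.67 with library totals. Clu was called higher by both scalings, at 10235, 10219 and 10496 CPM in hepatocytes, against 1848, 1625 and 4101 CPM in livers.

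Regulators came down unevenly. The list of hepatocyte transcription factors had 26 tested members, of which 20 fell, 12 of them at least 4-fold, and none rose with TMM; the median log2 fold change was -1.85. With library totals 6 were called higher and 14 lower, 10 of them at least 4-fold, with a median of -0.98. Nr1i3 (CAR, the xenobiotic sensor) had 0.0559, 0.165 and 0.121 CPM in hepatocytes, against 89, 93.2 and 32.6 CPM in livers, a log2 fold change of -9.19 (SE 0.66, edgeR adjusted p = 2.43e-05). Nr0b2 (SHP, a corepressor induced by bile acids), Ppara (the fasting and fatty acid receptor) and Klf15 (a glucocorticoid-responsive factor of amino acid breakdown) had log2 fold changes of -5.70, -5.25 and -5.25. The groups did not overlap for any of these 4. Hnf4a, the nuclear receptor at the centre of hepatocyte identity, was reduced less, at 216, 226 and 213 CPM in hepatocytes, against 672, 690.4 and 926 CPM in livers (-1.80). Prox1, an early hepatoblast factor, was at -1.32. Onecut2 (-0.14) and Hhex (-0.55) were not called.

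Secreted proteins followed. Among plasma proteins, 35 of 40 tested members were at least 4-fold lower and none was called higher, with a median log2 fold change of -3.45. The list took 6.13, 6.04 and 6.09% of the hepatocyte libraries, against 18.2, 19.4 and 21.4% of the livers. Alb had 9061, 8896 and 8959.8 CPM in hepatocytes, against 97180, 110520 and 71125 CPM in livers, 10.4-fold lower (log2 fold change -3.37, SE 0.24, edgeR adjusted p = 2.26e-05). Serpina6 (corticosteroid-binding globulin) had 1.62, 1.1 and 1.21 CPM in hepatocytes, against 527, 660.5 and 221 CPM in livers. Hrg (histidine-rich glycoprotein), Fgg (a fibrinogen chain) and Plg (plasminogen) had log2 fold changes of -6.21, -5.91 and -5.64, whereas Apob, the structural protein of very low density lipoprotein, fell by only 1.29. Without GFP liver 3 the value of Fgg was -4.98. Ttr (transthyretin) was 20.8-fold lower. No value of Alb, Ttr, Apob or Serpina6 in a hepatocyte library reached that in a liver library.

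The promoters of plasma protein genes are a textbook setting for HNF1, a homeodomain factor of liver. The 9-letter half-palindrome GTTAATNAT, searched on both strands of the 250 bases before the start in RefSeq windows (build GRCm38.p6), was held by 4 of 32 plasma protein genes with a window (12.5%), against 1.69% of genes at least 4-fold lower, 0.536% of genes at least 4-fold higher and 0.606% of all 10397 tested genes with a window. In all RefSeq windows the share was 0.781%. The windows of Fga and Afm (afamin, a vitamin E carrier), the most reduced of those 4 genes, and of Alb, added because it lost the largest share, are shown with the motif in capitals. The Fga window is chr3:83025903-83026152 on the plus strand, that of Afm chr5:90518699-90518948 and that of Alb chr5:90460620-90460869, both also on the plus strand, and the last base lies next to the start.
Fga: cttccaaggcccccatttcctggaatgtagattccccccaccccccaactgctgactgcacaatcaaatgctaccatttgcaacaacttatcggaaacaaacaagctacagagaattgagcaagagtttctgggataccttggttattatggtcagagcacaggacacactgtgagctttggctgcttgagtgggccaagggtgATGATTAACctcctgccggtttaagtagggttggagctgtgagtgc
Afm: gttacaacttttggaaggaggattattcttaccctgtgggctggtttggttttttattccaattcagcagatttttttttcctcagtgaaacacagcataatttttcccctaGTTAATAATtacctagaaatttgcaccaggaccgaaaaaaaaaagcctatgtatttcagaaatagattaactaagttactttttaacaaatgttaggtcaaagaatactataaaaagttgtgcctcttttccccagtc
Alb: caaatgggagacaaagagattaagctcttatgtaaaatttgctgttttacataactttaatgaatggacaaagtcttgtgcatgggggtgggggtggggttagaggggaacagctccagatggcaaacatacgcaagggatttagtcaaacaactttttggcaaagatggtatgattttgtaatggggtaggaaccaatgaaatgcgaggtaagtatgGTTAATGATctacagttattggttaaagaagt
The motif began 46 bases before the start of Fga, 138 before that of Afm and 32 before that of Alb. Fga had 195, 175 and 172 CPM in hepatocytes, against 3519, 3954 and 17531 CPM in livers, and Afm 15.6, 15.4 and 13.7 CPM in hepatocytes, against 319.7, 352 and 281 CPM in livers. Fga had a log2 fold change of -5.53, and of -4.36 without GFP liver 3. A match of letters is a description and was not tested as a binding site.

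Complement factors, the liver-made proteins of innate immunity, were lower at least 4-fold in 14 of 22 tested members and higher in 1, Clu, which is on this list as an inhibitor of the terminal complex. At least 4-fold lower were 10 with library totals and 10 of 22 tested without GFP liver 3. Mbl1 (a mannose-binding lectin) fell by 5.72 on the log2 scale, while Mbl2, with 439, 423 and 419.9 CPM in hepatocytes, against 407, 418 and 372 CPM in livers, was not called (0.10). C8a and C6 were 46.1 and 20.5-fold lower, with log2 fold changes of -5.53 and -4.36 that were -4.27 and -2.62 without GFP liver 3, where they were highest.

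Drug and bile acid genes were among the most reduced. Of 30 tested drug metabolism genes, 27 were at least 4-fold lower and the other 3 were also called lower (median -4.69). Their share of counts was 0.206, 0.206 and 0.205% in hepatocytes, against 2.49, 2.43 and 2.07% in livers. Cyp2e1 had 27.8, 32.4 and 25.2 CPM in hepatocytes, against 10443, 10816 and 9401 CPM in livers, 359-fold lower with no overlap (log2 fold change -8.49, SE 0.21, edgeR adjusted p = 6.13e-07). Cyp3a25, Cyp2j5 and Sult1a1 (a sulfotransferase) were 707, 201 and 149-fold lower. Least reduced were Cyp2a5 (-1.39), Ugt2b36 (-1.69) and Por (-1.97), the reductase that passes electrons to all microsomal P450s. Members of the Cyp2 family have close paralogs, and reads may be split between them.

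Bile acid genes were lower throughout: all 20 tested members were called lower, 18 of them at least 4-fold (median -5.31). Cyp7a1, the rate-limiting enzyme of the classic pathway, had no count in any siScramble hepatocyte library, against 70.2, 118 and 286 CPM in GFP livers, which is at least 2688-fold lower when 3 counts over the group are taken as the floor. Cyp8b1, which sets the share of 12-hydroxylated bile acids, had 0.0559, 0.22 and 0.0607 CPM in hepatocytes, against 623, 409 and 178 CPM in livers. Slco1b2, a sinusoidal uptake carrier, and Akr1d1, a steroid reductase of the pathway, were 646 and 422-fold lower. The canalicular pumps Abcc2 (-1.31) and Abcb4 (-1.92) lost less.

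Most genes of nitrogen and amino acid handling fell. All 8 urea cycle genes were at least 4-fold lower, with a median of -3.85, and 5 of them were so with library totals (median -3.01). Arg1, the arginase that releases urea, had 1.17, 1.59 and 1.21 CPM in hepatocytes, against 1157, 1433 and 1616 CPM in livers, 1048-fold lower (log2 fold change -10.03, SE 0.25, edgeR adjusted p = 6.13e-07). Cps1, the entry enzyme of the cycle, had 34.4, 31.3 and 29.3 CPM in hepatocytes, against 2687, 4352 and 5231 CPM in livers. Otc and Ass1 were 46.9 and 22.6-fold lower. No liver library overlapped a hepatocyte library for these 4 enzymes. Of 30 tested genes of amino acid breakdown, 26 were at least 4-fold lower and none was at least 4-fold higher (median -4.90). Haao, Hpd, Tat and Bhmt, enzymes of tryptophan, tyrosine and betaine metabolism, had log2 fold changes of -8.36, -7.97, -7.81 and -7.77, while Acmsd (0.85) and Sdsl (0.12) were not called. Glud1 was the 1 member called higher (0.81), at 2698, 2713 and 2580 CPM in hepatocytes, against 1581, 1511 and 1482 CPM in livers. With library totals, and also without GFP liver 3, 3 members were called higher. Car5a, the mitochondrial carbonic anhydrase that supplies bicarbonate to Cps1, had 2 counts in hepatocytes in all and a ratio of livers over hepatocytes of 2284 (95% interval 632 to 18870), and it overlaps a gene on the other strand.

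Glucose output was affected most at its committed steps. All 14 tested genes of gluconeogenesis and glycogen were called lower, 12 of them at least 4-fold (median -4.60). Pck1, which makes phosphoenolpyruvate, had 0, 0.165 and 0.121 CPM in hepatocytes, against 2029, 1798 and 939.7 CPM in livers. G6pc, the phosphatase that frees glucose (chr11:101258387-101268729, mm39), had 1 count in the 3 hepatocyte libraries, against 327, 151 and 189 CPM in livers, a ratio of livers over hepatocytes of 11853 (95% interval 2127 to 468220). Fbp1, which removes a phosphate from fructose bisphosphate, was 49.9-fold lower. Pklr, the liver pyruvate kinase, was nearest to its liver level, at 578, 601 and 575 CPM in hepatocytes, against 983, 875 and 743 CPM in livers, and its sign turned with library totals, from -0.57 with TMM to 0.25.

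Both ends of the lobule were affected. Liver zonation places glutamine synthesis and much drug metabolism around the central vein and urea synthesis and gluconeogenesis around the portal vein. All 13 pericentral markers were at least 4-fold lower (median -4.56), as were 11 of 12 periportal markers (median -5.26). Lgr5, a receptor of the Wnt-responsive pericentral cells, had no count in hepatocytes, against 9.36, 10.7 and 11.7 CPM in livers, at least 184-fold lower. Slc1a2 (a glutamate carrier) and Rgn had log2 fold changes of -8.56 and -7.46, and on the periportal side Hal (histidine ammonia-lyase) and Sds (serine dehydratase) had log2 fold changes of -7.68 and -7.21. The exception was the periportal marker Cdh1 (E-cadherin), with 172, 173 and 169 CPM in hepatocytes, against 13.2, 26 and 89.4 CPM in livers, a log2 fold change of 2.00 (SE 0.63, edgeR adjusted p = 0.024), a call lost when any 1 hepatocyte library or GFP liver 2 was left out. Without GFP liver 3, the liver with most Cdh1, it was 3.15. Slc1a2 was at -9.30 without siScramble hepatocytes 2.

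**Figure D2:**
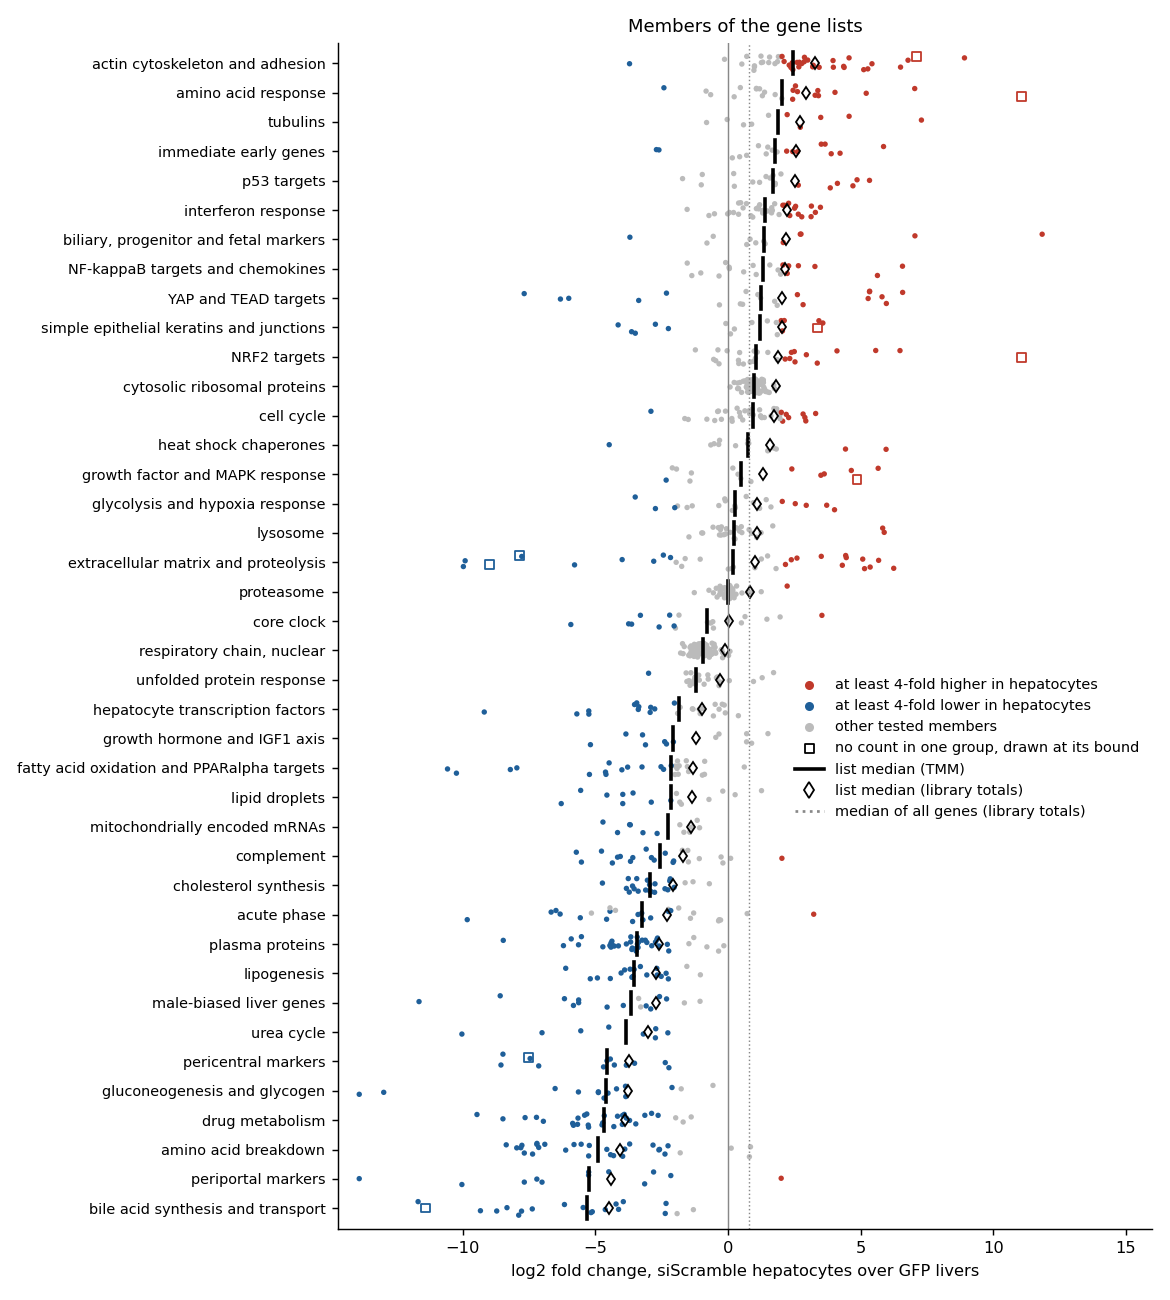
Log2 fold change of siScramble hepatocytes over GFP livers for the tested members of 40 gene lists, 1 point per gene, with the list median under TMM (bar) and under library totals (diamond). Bile acid, periportal, amino acid and drug metabolism lists lie furthest left, with medians between -5.31 and -4.69, and the actin cytoskeleton list lies furthest right, at 2.44; genes with no count in 1 group are squares at their bound.

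Lipid genes fell on both the burning and the making side, and here GFP liver 3 mattered. Fatty acid oxidation and PPARalpha targets had 23 of 27 tested members called lower, 14 at least 4-fold (median -2.14), and 22 at least 4-fold without GFP liver 3. Fabp1, the liver fatty acid carrier, had 2.85, 3.13 and 3.04 CPM in hepatocytes, against 4663, 4262 and 2013 CPM in livers, 1209-fold lower (log2 fold change -10.24, SE 0.45, edgeR adjusted p = 2.77e-06). Cyp4a14, an omega-hydroxylase, had 0.559, 0.55 and 0.182 CPM in hepatocytes, against 917, 1112 and 4.16 CPM in livers. The hepatocytes lay below every liver for both, but GFP liver 3 lay far below the other livers for Cyp4a14. Core enzymes of the pathway, Hadha (-1.53), Acadm (-1.99), Etfdh (-1.84) and Acadl (-1.49), fell less than 4-fold with all livers. Acadm and Etfdh were at -2.25 and -2.08 without GFP liver 3.

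Lipogenesis genes were at least 4-fold lower in 17 of 19 tested members (median -3.54), and in 12 with library totals (median -2.73). Their share was 0.38, 0.383 and 0.383% of counts in hepatocytes, against 3.56, 3.8 and 1% in livers. Fasn (fatty acid synthase) had 87.6, 90.8 and 94.9 CPM in hepatocytes, against 2974, 3907 and 3126 CPM in livers, and Thrsp, a lipogenic cofactor, fell by 6.12. Scd1 had 1263, 1262 and 1278 CPM in hepatocytes, against 29207, 29425 and 3575 CPM in livers, with a log2 fold change of -4.03 that was -4.52 without GFP liver 3. Me1 (malic enzyme) was not called (-1.04) and overlapped between the groups. Cholesterol synthesis genes, targets of SREBP2, were called lower in all 24 tested members, 21 at least 4-fold and 16 without GFP liver 3 (median -2.94). Under library totals 21 were called lower, 14 of them at least 4-fold (median -2.09). Insig1, the sterol-sensing anchor, had 27.3, 26.7 and 28.8 CPM in hepatocytes, against 497, 912 and 798 CPM in livers. Idi1, an isoprenoid enzyme, had 13.4, 11.3 and 11.6 CPM in hepatocytes, against 62.9, 172 and 257 CPM in livers, which varied among themselves. Srebf2, the factor itself, fell by 0.70 with TMM and was at 0.14 with library totals.

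Lipid droplet genes were lower at least 4-fold in 8 of 15 tested members, and in 13 without GFP liver 3, with medians of -2.16 and -3.09. Plin2, the coat of hepatocyte droplets, had 777, 793 and 759 CPM in hepatocytes, against 1338, 1000.4 and 333 CPM in livers, and was not called. Its hepatocyte level lay between the first 2 livers and the third. G0s2, a lipase inhibitor, and Cd36, a fatty acid uptake receptor, were 23.7 and 15.7-fold lower. Without GFP liver 1 the log2 fold change of G0s2 was -3.56, against -4.57 with it.

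Many hormone-patterned genes fell too. The growth hormone and IGF1 axis had 7 of 13 tested members at least 4-fold lower (median -2.06), and 4 with library totals (median -1.22). Ghr, the growth hormone receptor, had 98.4, 96.1 and 98.9 CPM in hepatocytes, against 889.8, 858 and 789 CPM in livers, 8.65-fold lower. Igfbp4, Igfbp2 and Prlr (the prolactin receptor) had log2 fold changes of -3.85, -3.22 and -5.19, whereas Socs2 (a growth hormone-induced inhibitor) and Jak2 were called higher, at 2.84 and 1.62-fold. Male-biased liver genes were at least 4-fold lower in 12 of 16 tested members and none was called higher (median -3.66). Without GFP liver 3, 9 of 16 were at least 4-fold lower and 3 were called higher (median -2.76). Elovl3 and Cyp2d9 were 385 and 56.8-fold lower, Elovl3 with a log2 fold change of -8.59 that was -9.72 without siScramble hepatocytes 3. Of 15 female-biased liver genes, 7 had no count in hepatocytes and only 4 were tested, all at least 4-fold lower (median -3.93). Without GFP liver 3, 8 were tested and all 8 were at least 4-fold lower (median -9.56, with no bound set for genes without a count). The added members passed the filter only through GFP livers 1 and 2, so their direction was fixed in advance. Hamp, which encodes the iron hormone hepcidin, had 0.447, 0.11 and 0.243 CPM in hepatocytes, against 217, 251 and 284 CPM in livers, 912-fold lower with no overlap (log2 fold change -9.83, SE 0.32, edgeR adjusted p = 1.08e-06). It belongs to the acute phase list, of which 14 of 26 tested members were at least 4-fold lower (median -3.23), and 9 of 26 without GFP liver 3 (median -1.07). At any size, 1 member of that list was called higher with all livers and 7 without GFP liver 3. Cd14, the endotoxin coreceptor, was the list's 1 member at least 4-fold higher, at 25.8, 28.1 and 26.7 CPM in hepatocytes, against 1.67, 1.95 and 5.06 CPM in livers (3.23, and 3.90 without GFP liver 3). Abhd6 itself had 27.6, 25.3 and 25.4 CPM in hepatocytes, against 57.4, 51.5 and 32.3 CPM in livers, a log2 fold change of -0.85 (SE 0.20, edgeR adjusted p = 0.00752), which was -0.041 (adjusted p = 0.883) with library totals.

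What rose was led by the cytoskeleton. Actin filaments, the myosin and calponin that pull on them, and the integrins that tie them to the matrix form the stress fibres and adhesions of spread cells. Of 45 tested members of this list, 42 were called higher, 29 at least 4-fold, with a median of 2.44. The list took 2.36, 2.42 and 2.42% of hepatocyte counts, against 0.278, 0.273 and 0.24% of liver counts. Flnc (filamin C, an actin crosslinker) had 63.4, 76.3 and 76.1 CPM in hepatocytes, against 0.238, 0.0846 and 0.0904 CPM in livers, 482-fold higher (log2 fold change 8.91, SE 0.23, edgeR adjusted p = 6.13e-07). Cnn1 (calponin) had 10.5, 10.7 and 13.6 CPM in hepatocytes and no count in livers, at least 136-fold higher. S100a6 and Anxa3, calcium-dependent membrane and cytoskeleton binders, rose by 6.79 and 6.50 on the log2 scale. Without GFP liver 1 the value of Flnc was 9.57. For these 4 genes, picked for their large change, every hepatocyte library lay above every liver, as in 37.6% of all tested genes.

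Myh9 and Actb, abundant in any cell, were 6.36 and 3.72-fold higher. Vim (vimentin, an intermediate filament of mesenchymal and of many cultured cells), chosen after its values were seen, had 996, 1034 and 1080 CPM in hepatocytes, against 30.8, 32.4 and 17.4 CPM in livers. The 1 member called lower, Anxa1, had 0.279, 0.44 and 0.425 CPM in hepatocytes, against 7.3, 5.33 and 2.62 CPM in livers. Tubulins, the subunits of microtubules, were at least 4-fold higher in 5 of 10 tested genes (median 1.88). Tubb2b, a form best known from the nervous system, had 82.2, 85 and 86.1 CPM in hepatocytes, against 1.43, 0.0846 and 0 CPM in livers, where nearly all of it was in GFP liver 1 and the log2 fold change was 7.29 with that liver and 10.68 without it. Tuba1a and Tubb5 were 23.7 and 11.3-fold higher.

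YAP and TEAD carry a mechanical signal: on a stiff, spread cell the coactivator YAP enters the nucleus and binds TEAD factors at the motif GGAATG. The target list split. Of 21 tested members, 8 were at least 4-fold higher and 5 at least 4-fold lower (median 1.23). Ccn2 and Ankrd1, often used as readouts of the pathway, had 269.8, 298 and 297 and 29.7, 31.5 and 30.3 CPM in hepatocytes, against 8.65, 4.14 and 2.53 and 0.159, 0.592 and 0.181 CPM in livers. Ccn1 had 441, 461 and 453 CPM in hepatocytes, against 14.6, 11.8 and 8.31 CPM in livers, and Tgfb2, a secreted growth factor, rose by 5.97. No library of 1 group reached the other for these 4. Log2 fold changes were 5.81 for Ccn2 and 6.58 for Ankrd1. Without GFP liver 1, Ccn2 and Tgfb2 were at 6.44 and 6.64, and without GFP liver 2, Ankrd1 was at 7.45. Lower were Rbms3, Ccdc80, Axl and Arhgef17, of which Axl, a receptor tyrosine kinase also carried by macrophages, had 0.391, 0.659 and 0.121 CPM in hepatocytes, against 23.3, 38.3 and 16.5 CPM in livers. In the same libraries the Kupffer cell and macrophage markers summed to 84.1, 88.7 and 81.8 CPM of the library total in hepatocytes, against 304, 421 and 268 in livers, with 12 of 13 lower, and the stellate cell markers to 27.6, 28.2 and 28.3 in hepatocytes, against 534, 589 and 169.8 in livers, with 15 of 15 lower; their part in these 4 genes was not tested.

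The motif GGAATG, on either strand of the same 250-base windows, was held by 6 of 14 list members with a window (42.9%), 13% of genes at least 4-fold higher, 12.1% of those at least 4-fold lower, 10.6% of all tested genes and 12.6% of all RefSeq windows. The windows of the 3 members with the motif that differed most are shown, 2 higher and 1 lower, to show that the same letters stand before genes that went opposite ways. The windows are chr19:36119845-36120094 for Ankrd1, chr3:145649986-145650235 for Ccn1 and chr7:25788734-25788983 for Axl (GRCm38.p6, all minus strand, written in the direction of transcription, motif in capitals).
Ankrd1: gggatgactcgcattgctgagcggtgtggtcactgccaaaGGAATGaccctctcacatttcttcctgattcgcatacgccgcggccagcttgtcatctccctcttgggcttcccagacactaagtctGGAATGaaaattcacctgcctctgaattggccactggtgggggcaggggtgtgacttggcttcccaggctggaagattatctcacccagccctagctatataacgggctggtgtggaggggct
Ccn1: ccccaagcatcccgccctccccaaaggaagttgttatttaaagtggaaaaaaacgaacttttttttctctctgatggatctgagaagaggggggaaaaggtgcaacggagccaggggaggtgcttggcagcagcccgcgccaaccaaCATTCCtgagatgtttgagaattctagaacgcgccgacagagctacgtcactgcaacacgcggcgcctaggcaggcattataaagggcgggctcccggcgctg
Axl: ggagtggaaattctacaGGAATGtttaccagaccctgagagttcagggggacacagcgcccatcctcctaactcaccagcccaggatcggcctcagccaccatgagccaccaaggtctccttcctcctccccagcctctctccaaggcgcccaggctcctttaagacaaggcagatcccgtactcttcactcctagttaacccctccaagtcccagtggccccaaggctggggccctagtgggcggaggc
Ankrd1 held the motif at 210 and at 123 bases before the start, Ccn1 at 103 and Axl at 233. The AP-1 motif TGANTCA, on both strands, was in 8.04% of the windows of genes at least 4-fold higher, 7.42% of those at least 4-fold lower, 4.69% of all tested genes, 6.87% of all RefSeq windows and 1 of 7 members of the growth factor and MAPK response list (14.3%).

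Epithelial and progenitor genes changed selectively. The biliary, progenitor and fetal list had 13 of 22 members tested, 5 at least 4-fold higher and 1 at least 4-fold lower (median 1.35). Leaving out GFP liver 3 changed the members that passed the filter: 17 were tested, 5 at least 4-fold higher and 5 at least 4-fold lower (median 0.78). Cldn4, a tight junction claudin scarce in liver, had 341, 346 and 339.8 CPM in hepatocytes, against 3 counts in all in livers, a ratio of 4051 (95% interval 1386 to 19645). Sox4 and Sox9, transcription factors of bile duct formation, had 454, 435 and 465 and 32.1, 32.1 and 34.5 CPM in hepatocytes, against 3.33, 5.75 and 1.08 and 4.92, 6.26 and 12.3 CPM in livers. Both were clear of overlap, and Sox4 was at 7.05 with all livers and 7.66 without GFP liver 2. Spp1 (osteopontin) and Cd24a were 6.6 and 6.73-fold higher, and Afp, the fetal albumin, rose only by 1.05. Of 9 cholangiocyte markers, 4 were tested and all 4 were called higher, 2 of them at least 4-fold (median 1.74). Without GFP liver 3, 6 were tested, with 3 called higher and 2 lower, 2 at least 4-fold each way (median 1.03). Krt7, Epcam, Cftr and Cldn7, also on that list, were under 1 CPM in every hepatocyte library.

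Keratins and junctions had 6 members at least 4-fold higher and 5 at least 4-fold lower among 18, and 9 and 3 with library totals. Krt8 had 3665, 3822 and 3747 CPM in hepatocytes, against 343, 322 and 380.1 CPM in livers, 10.7-fold higher (log2 fold change 3.43, SE 0.14, edgeR adjusted p = 2.03e-06), and Krt18, its partner, was 11.9-fold higher. Dsp (desmoplakin) rose by 2.12, while the gap junction gene Gjb1 and the claudin Cldn2 had log2 fold changes of -3.64 and -3.50. The matrix list was split. Thbs1, Vcan, Plaur and Nid1, among 12 of 33 members at least 4-fold higher, rose by 6.25, 5.68, 5.36 and 5.15, and Col3a1, Col6a1, Col1a2 and Bgn, products mainly of stellate cells and fibroblasts, were among the 10 at least 4-fold lower. Vcan was at 5.09 without GFP liver 1. Col1a2 and Col6a1 had no count in hepatocytes, against 49.7, 25.6 and 9.67 and 14.6, 14.6 and 10.8 CPM in livers, at least 512 and 235-fold lower. Fn1 (fibronectin) was not called, at 3841, 3892 and 4182 CPM in hepatocytes, against 3035, 2864 and 5939.7 CPM in livers.

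Some proliferation genes rose, from low levels. Cell cycle genes were at least 4-fold higher in 8 of 39 tested members (median 0.95), in 5 without GFP liver 3 and in 19 with library totals (median 1.75), led by Cenpe, Plk1, Ccnb1 and Foxm1, which drive mitosis but reached at most 7.47 CPM, the value of Cenpe in siScramble hepatocytes 3. Ccnd1, the G1 cyclin, went the other way, at 7.94, 7.53 and 6.98 CPM in hepatocytes, against 50.6, 62 and 56 CPM in livers. Of 15 tested growth factor and MAPK response genes, 6 were at least 4-fold higher and 1 lower, the count of lower genes being 0 with library totals and 2 without GFP liver 3. Myc had 78, 81.4 and 78.9 CPM in hepatocytes, against 3.17, 2.54 and 3.8 CPM in livers, 25.1-fold higher with no overlap (log2 fold change 4.65, SE 0.14, edgeR adjusted p = 8.96e-07). Fosl1 (an AP-1 subunit) had 1.9, 2.42 and 3.1 CPM in hepatocytes and no count in livers, at least 29-fold higher. Egfr, a receptor of these signals, was not called, at 222, 205 and 209 CPM in hepatocytes, against 337, 178 and 2211 CPM in livers, where GFP liver 3 was the high one.

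Immediate early genes, the first wave after stimulation or cell handling, were at least 4-fold higher in 8 of 18 tested members and lower in 2 (median 1.76); with library totals the counts were 12 higher and 0 lower (median 2.56). Ier3, Klf6, Fosb and Btg2 were 58.2, 18.7, 14.8 and 12.6-fold higher, the log2 fold change of Ier3 being 5.86 with all livers and 6.85 without GFP liver 1. Egr1 was not called (0.16), and Zfp36, which destabilises cytokine mRNA, was 6.09-fold lower.

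Inflammatory genes were mostly higher. NF-kappaB targets and chemokines had 20 of 30 members tested, 7 at least 4-fold higher and none lower at that size (median 1.32). When GFP liver 3 was left out, 22 were tested, 7 at least 4-fold higher and 2 at least 4-fold lower, and with library totals 10 were higher at that size and 0 lower. Ccl2, the monocyte chemoattractant, had 109, 117 and 120.1 CPM in hepatocytes, against 2.22, 0.93 and 0.361 CPM in livers, 95.4-fold higher, with log2 fold changes of 6.58 and, without GFP liver 1, 7.46. Lif, a cytokine of the IL-6 family, was 49.6-fold higher, and Nfkbia was not called (-0.34). Interferon response genes were called higher in 33 of 39 tested members, 12 at least 4-fold (median 1.40), and 23 at least 4-fold with library totals (median 2.23). Oasl2, Rsad2, Usp18 and Isg15, antiviral effectors and an ubiquitin-like modifier with its protease, rose by 3.48, 3.29, 3.14 and 3.13. Rsad2 had 102, 127 and 116 CPM in hepatocytes, against 13.2, 12.8 and 9.22 CPM in livers. Isg15 was at 3.74 without GFP liver 3. Stat2 (0.05) was not called and Iigp1, an interferon-gamma-induced GTPase, fell by 1.54. Every siScramble library came from cells given a small interfering RNA, so that treatment and culture cannot be told apart here.

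Stress programmes differed from one another. The amino acid response run by ATF4 had 11 of 23 tested members at least 4-fold higher and 1 lower (median 2.03), or 15 and 0 with library totals. Slc7a11, the cystine importer, had 173, 178 and 191 CPM in hepatocytes and no count in livers, at least 2134-fold higher (chr3:49846975-50398063, mm39). Phgdh and Psat1, which open serine synthesis, had 27.8, 31.8 and 33 and 37.6, 37.9 and 38.5 CPM in hepatocytes, against 0, 0.254 and 0.452 and 2.06, 2.37 and 2.53 CPM in livers. Groups did not overlap for any of the 3, and Phgdh lay between 6.45 without GFP liver 1 and 7.89 without GFP liver 3. The factor Atf4 itself rose by 0.46, and Shmt2, a mitochondrial serine enzyme, fell by 2.42.

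NRF2 targets, which supply glutathione and detoxify electrophiles, were at least 4-fold higher in 11 of 28 tested members and in none lower (median 1.07). Besides Slc7a11 they included Gsta1, Abcc4 and Cbr3, at 89.4, 47.4 and 17.2-fold. Log2 fold changes were 6.48 for Gsta1 and 4.11 for Cbr3, and 7.07 and 5.33 without GFP liver 1. Gstm1 (-0.38) and Gstp1 (0.39) were not called; glutathione transferase genes have close copies. Targets of p53 were at least 4-fold higher in 6 of 19 (median 1.70), and in 12 with library totals (median 2.53). Cdkn1a, the p21 cell cycle inhibitor, had 226, 228 and 245 CPM in hepatocytes, against 16.7, 5.92 and 1.17 CPM in livers, with a wide spread among the livers and no overlap; its log2 fold change was 4.86, and 6.03 without GFP liver 1. Tnfrsf10b, Phlda3 and Plk2 rose by 5.33, 4.71 and 4.12. Of 14 heat shock chaperones, 2, Hspa1a and Hspb1, were at least 4-fold higher, at 62.2 and 21.5-fold, Hspa1a having a log2 fold change of 5.96 that was 6.86 without GFP liver 1, and the collagen chaperone Serpinh1 was 22.3-fold lower. With library totals 5 of these chaperones were at least 4-fold higher.

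For the unfolded protein response of the secretory pathway the calls depended on the scaling: with TMM 20 of 27 tested genes fell and 3 rose (median -1.19), and with library totals 7 were called lower and 6 higher (median -0.31). Herpud1 had 67.1, 68.1 and 70.3 CPM in hepatocytes, against 599, 623 and 418 CPM in livers, and Hspa5 (BiP) was not called, at 0.048. Clock genes were at least 4-fold lower in 7 of 19 and higher in 1 (median -0.78), or in 4 lower and 3 higher with library totals (median 0.042). Dbp, an output of the clock, had 1.84, 2.25 and 2.97 CPM in hepatocytes, against 150.1, 168 and 112 CPM in livers, and Nr1d1 fell by 3.30. The hour of harvest is not given for either group, so time of day and culture cannot be told apart.

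Pairs of isoenzymes were compared within libraries, where scaling between libraries plays no part. Liver uses its own forms of many glycolytic and amino acid enzymes, and other tissues, fetal liver and many tumours use the widespread ones. For 9 pairs the log2 ratio of the deposited FPKM (fragments scaled by gene length and depth) of the widespread over the liver form was higher in all 3 hepatocyte libraries than in all 3 livers, and the exact two-sided permutation test gave the smallest possible p of 0.1 for each. The ratio of the methionine adenosyltransferases, Mat2a over Mat1a, was 2.25, 2.33 and 2.57 in hepatocytes, against -5.66, -5.74 and -5.44 in livers. Mat2a had 64, 66.2 and 63.3 FPKM and Mat1a 13.3, 13.1 and 10.6 FPKM in hepatocytes, against 28.5, 29 and 29.3 FPKM for Mat2a and 1448, 1553 and 1277 FPKM for Mat1a in livers. The order of the 2 enzymes was thus opposite in the groups. The same reversal held for the glucose transporters, the acyl-CoA synthetases and the phosphoenolpyruvate carboxykinases.

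Slc2a1 over Slc2a2 (GLUT1 over GLUT2) was 1.15, 0.93 and 1.03 in hepatocytes, against -5.02, -5.38 and -4.64 in livers. Mitochondrial Pck2 over cytosolic Pck1 was 5.57, 5.13 and 5.14 in hepatocytes, against -9.82, -8.44 and -8.64 in livers. Pck1 had 0, 0.0503 and 0.0369 FPKM in hepatocytes, so that the size of this ratio depended on the 0.1 added to each value before the logarithm. With 1 added in its place the difference between the groups was 10.46, against 14.24 with 0.1, and the differences of 5 of the 9 pairs moved by more than 1 SD of the replicates, all keeping their direction. In the other pairs the liver form still led in both groups. Pkm over Pklr was -2.61, -2.61 and -2.52 in hepatocytes, against -6.30, -5.86 and -6.04 in livers. In all 9 pairs the liver form was called lower. Among the widespread forms, Acsl4 (-0.28) and Gys1 (0.64) were not called, while Fabp5 was called lower (-2.93) with overlap between the groups, a call lost without any 1 hepatocyte library. The smallest fall of a liver form was that of Pfkl, at -0.36, a call lost without siScramble hepatocytes 1 and turned to 0.47 with library totals.

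**Figure D3:**
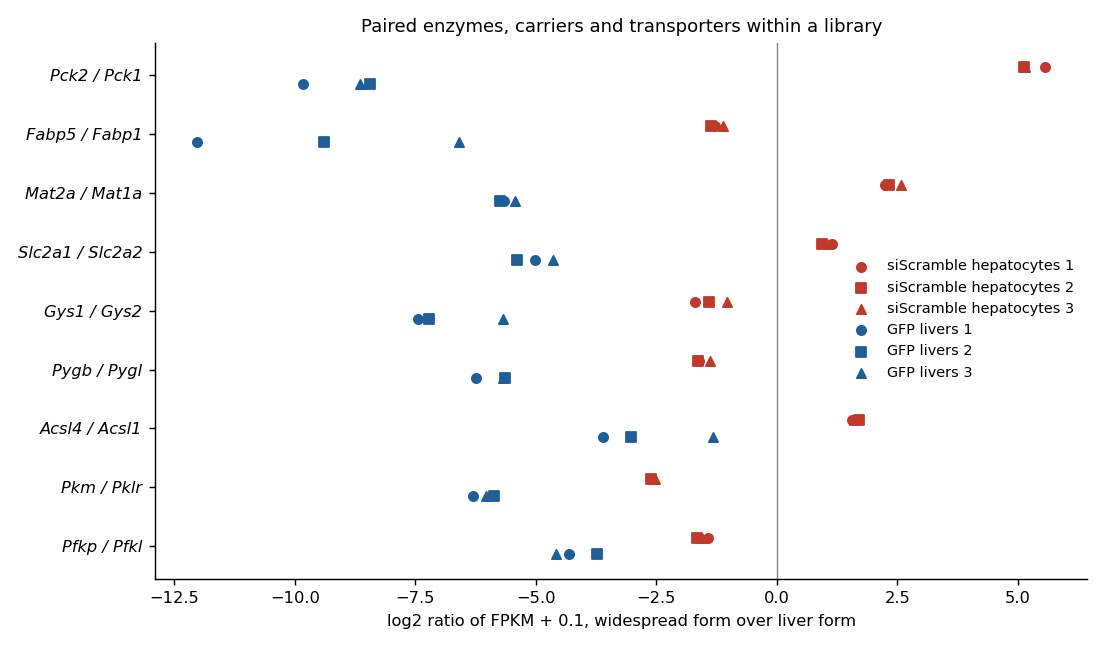
Log2 ratio of FPKM + 0.1 of the widespread over the liver form for 9 pairs, 1 point per library, hepatocytes drawn above livers in each row. Hepatocyte points lie right of all liver points in every row, and right of 0, where the widespread form leads, for Pck2, Mat2a, Acsl4 and Slc2a1.

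Glycolysis and hypoxia genes as a list were mixed, 5 of 22 at least 4-fold higher and 3 lower, or 8 and 1 with library totals. Adm, Hk2 and Pkm rose by 4.01, 3.72 and 2.95, whereas Pdk1, Bnip3 and Vegfa, classic hypoxia targets, had log2 fold changes of -3.50, -2.74 and -2.01, and Eno1 (0.26) was not called.

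Cytosolic ribosomal proteins were called higher in 72 of 76 tested members and in none at least 4-fold, with a median of 0.96 (17 at least 4-fold with library totals, median 1.81); their share was 2.99, 3.07 and 2.99% of counts in hepatocytes, against 0.759, 0.892 and 0.982% in livers. Many ribosomal genes have processed copies that can take reads. Nuclear genes of the respiratory chain were called lower in 73 of 78 with TMM, in none at least 4-fold, with a median of -0.95. With library totals 27 were called lower and 12 higher, and the median was -0.12. Sdha (complex II) and Atp5a1 (ATP synthase) had log2 fold changes of -1.65 and -1.27. Mitochondrially encoded mRNAs were called lower in all 12 tested genes, 6 of them at least 4-fold (median -2.25, -1.40 with library totals). Their share of counts was 3.11, 2.98 and 3.06% in hepatocytes, against 5.26, 5.09 and 4.28% in livers. The fall was uneven, 26.3-fold for mt-Nd3, which fell most, 9.24-fold for mt-Cytb and 2.11-fold for mt-Co1, which fell least. Nuclear copies of mitochondrial genes can take such reads.

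Proteasome subunits had a median of -0.021, with 7 called higher and 11 lower. With library totals 36 were called higher and 1 lower (median 0.81). Psmd8 was, with TMM, the 1 member of 38 at least 4-fold higher, at 657, 646 and 649.5 CPM in hepatocytes, against 148, 136 and 132 CPM in livers. Lysosomal genes had a median of 0.23, with 11 called higher and 7 lower, and with library totals a median of 1.08, with 22 called higher and 0 lower. With TMM 2 of 27 were at least 4-fold higher: Cd63, a tetraspanin of late endosomes, with 372, 382 and 390.3 CPM in hepatocytes, against 6.82, 9.81 and 2.62 CPM in livers, and Gpnmb, 56.9-fold higher. Expression also varied with gene length, from a median log2 fold change of -0.28 in the shortest 20% of genes to 0.27 in the longest 20%.

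RNA of most other liver cells was low or absent in the cultures. The summed cholangiocyte markers were higher in hepatocytes, mostly from Bicc1, Sox9 and Pkhd1, while 5 of the 9 had a mean under 1 CPM there. Stellate cell markers were at least 4-fold lower in all 15 genes (median -8.31, or -7.45 with genes without a count at their bound). What remained of their summed level in hepatocytes came mostly from Ecm1, which had 17.9, 19.7 and 19.1 CPM in hepatocytes, against 164, 169 and 57.6 CPM in livers. Dcn (decorin) had 3 counts in the hepatocyte libraries, against 185, 191 and 65.1 CPM in livers, a ratio of livers over hepatocytes of 2618 (95% interval 895 to 12700). Colec11, Cygb, Hand2 and Tcf21 had no count in hepatocytes, and Lrat, the enzyme that stores vitamin A, had 2 counts in all, a ratio of livers over hepatocytes of 758 (95% interval 209 to 6269).

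Kupffer cell and macrophage markers were at least 4-fold lower in 12 of 13 genes (median -7.32, or -7.18 with bounds). Clec4f, the lectin that defines mouse Kupffer cells, had 1 count in the 3 hepatocyte libraries, against 80.9, 124 and 94.2 CPM in livers, a ratio of livers over hepatocytes of 5223 (95% interval 937 to 206350). Cd163 and Timd4 had none. Adgre1 (F4/80) and Csf1r were 159.9 and 138-fold lower. The exception was Cd68, a lysosomal protein, with 60.6, 64.6 and 59.4 CPM in hepatocytes, against 10.2, 13.4 and 7.23 CPM in livers. Most of the list's summed level in hepatocytes was Cd68.

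Endothelial markers were at least 4-fold lower in 17 of 19 genes (median -3.89), and their residue was larger. Clec4g, a sinusoidal lectin, had no count in hepatocytes, against 37.4, 39 and 30.9 CPM in livers, at least 629-fold lower. Stab2, a sinusoidal scavenger receptor, kept 4.97, 5.22 and 4.73 CPM in hepatocytes, against 76.8, 82.9 and 62.6 CPM in livers, and Pecam1 and Cdh5 were 6.52 and 4.55-fold lower. Flt4 was called higher (0.52), a call lost without any 1 of GFP liver 1 and the hepatocyte libraries 1, 2 and 3. Fibroblast markers summed to 3.44, 4.16 and 4.2 CPM of the library total in hepatocytes, against 183, 119 and 43 in livers, and erythroid markers to 5.97, 5.7 and 6.54 in hepatocytes, mostly Alas2, against 171, 149.8 and 177 in livers. The globin Hbb-bs had no count in hepatocytes, against 51.2, 64.7 and 78.6 CPM in livers, at least 1125-fold lower. Monocyte and dendritic cell markers summed to 0.747, 0.804 and 0.323 CPM of the library total in hepatocytes, against 61.5, 62.6 and 31.3 in livers. Immunoglobulin genes Ighm and Igkc had 2 and 4 counts in hepatocytes, against 12.9, 17.8 and 10.3 and 13.7, 16.8 and 12.9 CPM in livers. Hepatocyte markers, defining for both groups, were present in both and lower in hepatocytes: all 13 were called lower, and their sum was 27404, 26943 and 27258 CPM of the library total in hepatocytes, against 113082, 126599 and 113271 in livers. With 3 libraries each, the exact two-sided permutation p of each of these sums was 0.1, the smallest possible.

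**Figure D4:**
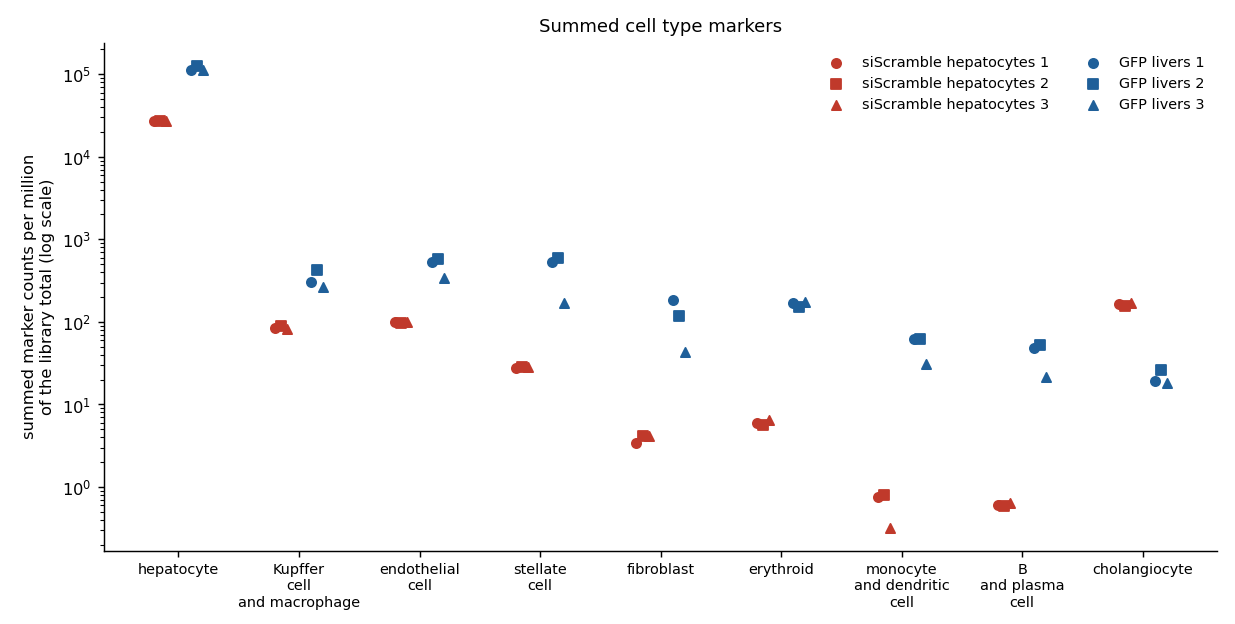
Summed CPM of the library total (log scale) of the marker genes of 9 cell types, 1 point per library. Hepatocyte libraries lie below the livers for every type except the cholangiocyte list, which reads 164, 156 and 170.1 in hepatocytes, against 19, 26.4 and 18.1 in livers, mostly from Bicc1, Sox9 and Pkhd1, while Krt7, Epcam and Cftr stay under 1 CPM in hepatocytes.

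GFP liver 3 decided a set of calls. For Serpina1e (an alpha-1 antitrypsin form), the values were 756, 771 and 751 CPM in hepatocytes, against 302, 109 and 23145 CPM in livers, a log2 fold change of -3.37 (edgeR adjusted p = 0.125), and without GFP liver 3 it was 1.90 (adjusted p = 4.94e-04). Saa1 (serum amyloid A) had 137, 147 and 148 CPM in hepatocytes, against 79.6, 43.3 and 8068 CPM in livers, and moved from -4.24 to 1.24 (adjusted p = 2.66e-04). Selenbp2, Mup7 and Hpx turned likewise, to 1.95, 3.12 and 0.81. For all 5 the hepatocytes lay above GFP livers 1 and 2 and below GFP liver 3. Mup genes are near-identical, and reads may be split among them. In the other direction, Cyp4a10 had a log2 fold change of -7.96 with all livers and of -8.53 without GFP liver 3.

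**Figure D5:**
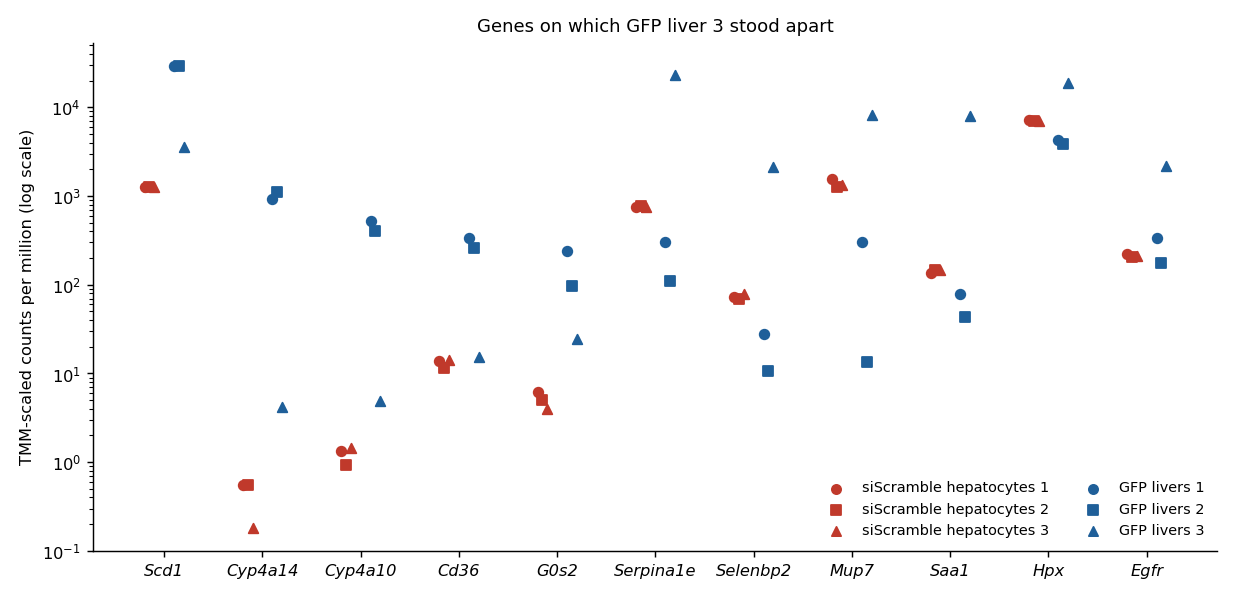
TMM-scaled CPM (log scale) of 11 genes in each library, 1 point per library. GFP liver 3 (triangles) lies below the other livers for Scd1, Cyp4a14, Cyp4a10, Cd36 and G0s2 and above them for Serpina1e, Selenbp2, Mup7, Saa1, Hpx and Egfr, and the hepatocyte libraries stay close together throughout.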

How the data were processed

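Poly(A)-selected RNA of 12 libraries was sequenced, and 6 were compared. Per the submitters' processing notes, HISAT2, DESeq2 and the mm39 build were used; versions, the counting program and its strand setting are not given in the sources used here. The deposited values are read counts per gene and FPKM per gene, both made by the authors. Levels of 2 genes were compared only by FPKM. Counts were tested with edgeR 4.0.16 (R 4.3.3): filterByExpr, TMM scaling and the quasi-likelihood test on the 6 libraries without a block, with Benjamini-Hochberg adjustment over all tested genes and thresholds of 0.05 and 4-fold. DESeq2 1.42.0 and limma 3.58.1 served as alternatives. The script was tested on simulated counts. A fold against a group without counts is a bound set at a floor of 3 counts over the group, and ratios with 1 to 3 counts carry exact 95% intervals, which cover counting error only. The members and gene lists were chosen with earlier results of these data known. The named genes are the 15 largest 4-fold increases and decreases with at least 50 CPM and no overlap, the 10 largest gains and losses of share, up to 4 members of each list by change in each direction and by level, the isoenzyme pairs, cell markers and Abhd6; other genes are said to be chosen after their values were seen. Replicate numbers do not pair the groups: deviations of same-numbered libraries correlated at -0.0157, -0.0058 and -0.0108. Some genes are not reported here.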

Additional observations from a re-analysis of the deposited data

How the results depend on the processing

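With library totals in place of TMM, 8388 genes were called higher and 2923 lower, and 2260 and 1611 at least 4-fold, against 4740, 5251, 1076 and 2236 with TMM. Tests against a 2-fold difference (glmTreat) called 1750 genes higher and 2896 lower. Genes at least 4-fold higher and lower numbered 397 and 1073 with a minimum of 1 CPM in every library, and 360 and 1050 with limma on log2(FPKM + 1), settings that drop or damp genes low in 1 group. RLE scaling, upper-quartile scaling, no filter, DESeq2, limma-voom with and without quality weights (the weights were chosen after seeing the data), limma on log2(FPKM + 0.1), protein-coding genes only and a fit of all 12 libraries kept all 4 counts within 1.5 times. A replicate block gave 4460 genes higher and 4924 lower, and 1102 and 2190 at least 4-fold; the numbers do not pair the libraries. Leaving out 1 library gave 4169 to 5508 genes higher, 4958 to 5823 lower, 1102 to 1223 at least 4-fold higher and 2232 to 2590 at least 4-fold lower, and the share of the 10 and 100 most abundant genes, hepatocytes minus livers, ranged from -9.65 to -8.86 and from -19.1 to -16.4 percentage points.

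Of 238 named genes under 21 settings, 16 changes of sign were found in which the gene was called in the main fit or in the alternative. Changes of sign without a call in either fit were not counted. With library totals the log2 fold changes of Acsl4 (0.57), Ddx3y (0.72), Eif2s3y (0.25), Gc (0.67), Nfkbia (0.48), Onecut2 (0.68), Pfkl (0.47), Pklr (0.25) and Srebf2 (0.14) turned positive. Without GFP liver 3 those of Hpx (0.81), Moxd1 (6.00), Mup7 (3.12), Saa1 (1.24), Selenbp2 (1.95) and Serpina1e (1.90) did so; with any 1 library left out these genes ranged from -0.69 to 0.81 (Hpx), from -9.25 to 6.00 (Moxd1), from -1.60 to 3.12 (Mup7), from -4.78 to 1.24 (Saa1), from -3.83 to 1.95 (Selenbp2) and from -3.91 to 1.90 (Serpina1e). In siABHD6 hepatocytes against ABHD6 overexpressing livers Eef1a1 turned to -0.53. The cause was not tested.

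Reads of overlapping genes and of near-identical families cannot be assigned with certainty.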

Other observations

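Some long noncoding RNAs and further genes, chosen after their values were seen, also differed. Malat1, a nuclear RNA, had 1416, 1539 and 1419 CPM in siScramble hepatocytes, against 438, 618 and 489.8 CPM in GFP livers, higher with edgeR's test (adjusted p = 1.47e-04). Neat1, the scaffold of paraspeckles and its neighbour in the genome, went the other way, at 197, 209 and 204 CPM in hepatocytes, against 608, 575 and 878 CPM in livers (-1.76, adjusted p = 1.30e-04). Neither gene's libraries overlapped between the groups. Of 1000 tested long noncoding RNAs, 97 were at least 4-fold higher and 305 lower, against 7.57% and 15.7% of all tested genes. Tmsb10, an actin monomer-binding peptide, had 488, 521 and 549 CPM in hepatocytes, against 13, 14.3 and 6.69 CPM in livers.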
